A study of Mus musculus with 6 samples.

Results

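The 10 genes described here encode myeloid C-type lectin receptors, surface proteins of macrophages, monocytes, neutrophils and dendritic cells: Clec4a1, Clec4a2, Clec4a3, Clec4d, Clec4e, Clec4n, Clec5a, Clec7a, Clec12a and Clec10a. They were taken by gene symbol from a table of 15824 genes, and all 10 were found and passed the low-count filter that left 11817 genes for testing. The transcripts sequenced came from cells labelled alveolar macrophages, the phagocytes of the airspaces. The cells had been sorted by flow cytometry from lungs of mice aged 8 weeks. There were 3 libraries from WT mice and 3 from Men1 knockout (KO) mice. Men1 encodes menin, a scaffold of MLL histone methyltransferase complexes, and the study's stated purpose was to find its target genes in macrophages. None of the sources used here gives how or in which cells the allele was deleted, the strain or sex of the mice, or whether a library is 1 mouse or a pool. The p-values below therefore speak only of variation among these 6 libraries, which could be technical.

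C-type lectin receptors bind sugars and glycolipids of fungi, mycobacteria and damaged cells through a carbohydrate-recognition fold. Activating members signal through the tyrosine kinase Syk and the adaptor Card9 to NF-kB. Clec4d, Clec4e and Clec4n do so by pairing with the Fc receptor gamma chain (FcR gamma, encoded by Fcer1g), Clec5a pairs with the adaptors DAP12 and DAP10 (encoded by Tyrobp and Hcst), and Clec7a carries a signalling motif in its own tail. Inhibitory members carry an immunoreceptor tyrosine-based inhibitory motif (ITIM) that recruits phosphatases such as SHP-1. Clec4a2, the dendritic cell immunoreceptor (DCIR), and Clec12a are of this kind, and Clec4a1 and Clec4a3 are DCIR-type relatives of Clec4a2 whose signalling was not assumed here. Clec10a is an endocytic receptor for galactose-type sugars.

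The Clec4 genes form a cluster on mouse chromosome 6 (GRCm38.p6), and the stretches before the start sites of 5 of them are shown. These are the Clec4 members with a promoter sequence, and they divided in KO. Clec4a1, Clec4a3, Clec4a2 and Clec4e rose while Clec4d, the neighbour of Clec4e, did not pass the test. Clec4n, which fell, had no promoter sequence to show. Each line gives the 250 bases before the first RefSeq start site, written 5' to 3' on the gene's strand, with capitals marking GAGGAA or its reverse complement, the core of the site bound by the myeloid factor PU.1.
Clec4a1 (chr6:122921598-122921847, plus strand): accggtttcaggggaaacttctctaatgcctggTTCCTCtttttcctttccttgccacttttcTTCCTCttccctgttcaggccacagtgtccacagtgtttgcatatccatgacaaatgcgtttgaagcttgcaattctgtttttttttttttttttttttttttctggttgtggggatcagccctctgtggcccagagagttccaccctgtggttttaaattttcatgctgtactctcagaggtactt
Clec4a3 (chr6:122952265-122952514, plus strand): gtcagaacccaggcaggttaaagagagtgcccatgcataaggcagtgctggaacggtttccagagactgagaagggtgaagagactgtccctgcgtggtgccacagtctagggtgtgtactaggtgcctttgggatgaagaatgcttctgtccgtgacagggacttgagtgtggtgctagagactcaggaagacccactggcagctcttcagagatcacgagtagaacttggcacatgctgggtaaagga
Clec4a2 (chr6:123122440-123122689, plus strand): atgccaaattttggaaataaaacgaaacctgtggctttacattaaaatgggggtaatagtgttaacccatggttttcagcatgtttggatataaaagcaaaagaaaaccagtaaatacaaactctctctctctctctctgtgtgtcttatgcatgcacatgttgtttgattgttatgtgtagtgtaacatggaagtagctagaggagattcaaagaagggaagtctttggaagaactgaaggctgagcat
Clec4d (chr6:123261857-123262106, plus strand): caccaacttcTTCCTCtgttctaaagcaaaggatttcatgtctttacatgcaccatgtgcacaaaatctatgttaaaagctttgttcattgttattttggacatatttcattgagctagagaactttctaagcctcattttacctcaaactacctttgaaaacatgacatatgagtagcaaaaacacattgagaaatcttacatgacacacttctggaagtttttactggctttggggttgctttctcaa
Clec4e (chr6:123289872-123290121, minus strand): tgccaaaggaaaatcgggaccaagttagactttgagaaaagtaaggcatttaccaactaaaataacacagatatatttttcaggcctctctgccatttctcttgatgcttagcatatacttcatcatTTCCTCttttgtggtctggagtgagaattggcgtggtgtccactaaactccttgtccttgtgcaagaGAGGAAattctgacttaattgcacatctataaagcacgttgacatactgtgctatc
Promoters of 8 of the 10 genes, all but Clec4n and Clec10a, were matched in RefSeq. Of these 8, 7 held GAGGAA on either strand before at least 1 start site. The same letters were found for 26.4% of the 9537 tested genes with a promoter and for 25.9% of all 27025 genes. The Clec4e stretch had 2 matches, at bases -123 to -118 and -56 to -51 from the start. It also matched the reverse complement of the C/EBP-type letters TTGCNNAA, as TTGTGCAA, at -66 to -59. TATAAA lay at -29 to -24. The Clec4a1 matches lay at -217 to -212 and -187 to -182, and the Clec4d match at -240 to -235. Clec4a3 had its match only before its second start site, at -50 to -45, and Clec4a2 had none in this window. A match describes letters in this window and is not a measured binding site. The longer letters GAGGAAGT were in none of the 8, against 3.33% of tested genes, and the E-box CACGTG was also in none, against 10.1%.

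In KO libraries 7 of the 10 lectin genes rose, 2 fell and 1 did not pass the test. Clec10a rose 2.32-fold, Clec4a3 2.15-fold, Clec4a2 1.92-fold, Clec4e 1.90-fold, Clec12a 1.76-fold, Clec4a1 1.73-fold and Clec7a 1.32-fold. Clec5a was 1.23-fold lower and Clec4n 1.13-fold lower. Calls are from the quasi-likelihood test of edgeR, with p-values adjusted by Benjamini-Hochberg over all genes tested and a threshold of 0.05. By that rule 69.2% of all genes passed, 34.4% higher and 34.9% lower, so passing the test is common in these data. The median log2 fold change of the 10 members was 0.80 and that of all genes tested was 0.00143. Only Clec4a3 and Clec10a passed with at least a 2-fold rise, a size and direction reached by 3.26% of all genes (8.20% in either direction). The KO and WT libraries did not overlap in any of the 10 genes on the scale of normalised counts (CPM, the count scaled to library size), which was also true of 71.2% of all genes. Every KO library was above every WT library for 7 of the 10, against 35.4% of all genes.

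Men1 had 594 to 639 counts in WT libraries and 149 to 165 in KO libraries, and the log2 fold change was -1.93 (adjusted p = 7.24e-24). Library totals ranged from 19955232 to 20151985 counts. Of 4 Y-linked genes examined, none had fewer than 283 counts in a WT library or more than 2 in a KO library, so the genotype contrast cannot be told apart from a difference in sex between the groups. The defining alveolar macrophage genes Siglecf, Fabp1 and Plet1 had 23 to 47, 0 to 1 and 1 to 2 counts per library. Of the 18 genes on the alveolar macrophage list, 9 were absent or had a mean of at most 1 CPM. Car4, Krt79, Krt19 and Cidec were not among the 15824 genes, and Ear1, Ear2 and Ear6 had at most 4 counts per library. These low values do not bear out the label of alveolar macrophages, and the identity of the cells was not tested. Other genes of the same list were well covered in every library. Marco had 3493 to 22754 counts, Atp6v0d2 1180 to 2512, Itgax 826 to 1129, Fabp4 589 to 651 and Pparg 243 to 401. Bhlhe41 had 207 ± 4.34 CPM in WT and 127 ± 0.985 CPM in KO. Itgam, an integrin of many myeloid cells, had at least 27020. Because the samples are bulk RNA, fewer cells of a type and less RNA per cell cannot be told apart.

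Levels were compared between genes in FPKM, the read count scaled to gene length and library size. Clec4d had the highest FPKM in both groups, and Clec10a the lowest. In WT the order was Clec4d, Clec4n, Clec4a2, Clec4a1, Clec12a, Clec4e, Clec7a, Clec4a3, Clec5a and Clec10a, and KO had the same order. Neighbours in the order did not overlap among the libraries of either group, although Clec4a2 and Clec4a1 were close in WT at 179 ± 4.53 and 171 ± 2.67 FPKM (mean ± SD here and below, n = 3 per group). Means in WT spanned 2.42 to 748 FPKM.

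**Figure D1:**
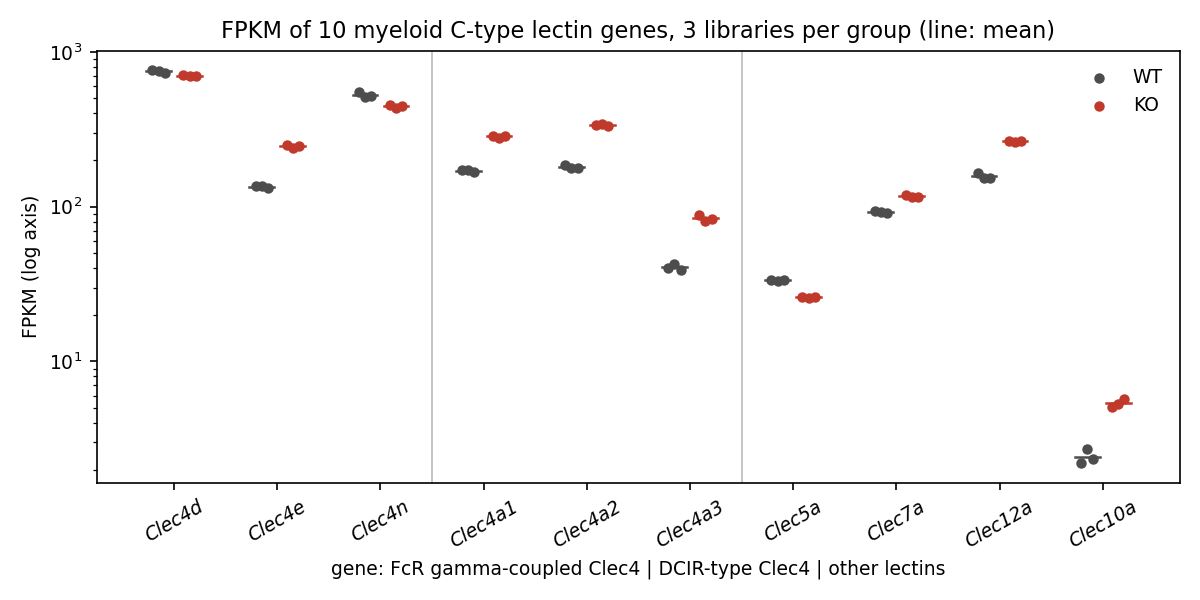
FPKM on a log axis for each of the 10 genes, with 3 WT and 3 KO libraries as points and group means as lines. Clec4d is highest in both groups, near 748 and 701 FPKM, and KO points lie above WT points for 7 genes.

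Among the 3 FcR gamma-coupled lectins of the 10 genes, Clec4e was the one that rose. Clec4e encodes Mincle, a receptor for mycobacterial cord factor and for material of dead cells. Its FPKM was 137, 135 and 132 in WT libraries 1 to 3 and 252, 239.59 and 246 in KO libraries 1 to 3. All KO values exceeded all WT values, and the log2 fold change was 0.92 (SE 0.0214, adjusted p = 1.37e-29). Clec4d encodes MCL, a partner of Mincle that also binds cord factor. It had 759, 749 and 735 FPKM in WT and 707, 699.91 and 695 FPKM in KO. Although the groups did not overlap, the difference in counts was small, and its log2 value was -0.03 (95% interval -0.0689 to 0.00252, adjusted p = 0.104). This missed the threshold, which does not show that the gene is equal in both groups, but the interval holds only changes of a few percent. The call depends on the scaling: Clec4d passed as lower, with log2 fold changes of -0.04 and -0.18, with upper-quartile scaling and on the TPM scale (adjusted p = 0.0487 and 0.00154), and on the TPM scale the median of all genes was itself -0.119.

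Clec4n encodes Dectin-2, a receptor for fungal mannans. Clec4n had 549, 513 and 521 FPKM in WT and 456, 431 and 448 FPKM in KO, lower in every KO library. Its log2 fold change was -0.18 (SE 0.0222, adjusted p = 9.38e-09). The coefficient of variation beyond counting noise that edgeR estimated over all genes tested was only 1.66%. The Clec4n CPM itself varied by 2.74% in WT and 2.33% in KO. When a coefficient of 10% (0.1) was assumed instead of the estimate, Clec4n no longer passed (adjusted p = 0.243, likelihood ratio test of edgeR). Clec4d and Clec4e came closer in level: the ratio of Clec4d to Clec4e FPKM was 5.54, 5.55 and 5.56 in WT libraries and 2.81, 2.92 and 2.83 in KO libraries.

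All 3 DCIR-type lectins rose. Clec4a2, the ITIM-bearing receptor DCIR, had 185, 176 and 177 FPKM in WT and 337, 344 and 333 FPKM in KO, and its log2 fold change was 0.94 (SE 0.0235, adjusted p = 1.44e-28). Clec4a1, also called DCIR4, had 173, 172 and 168 FPKM in WT and 288, 279.64 and 284 FPKM in KO. On the log2 scale its change was 0.79 (SE 0.0224, adjusted p = 6.49e-27). Clec4a3, also called DCIR3, had 40.3, 42.8 and 38.98 FPKM in WT and 87.9, 80.4 and 83.7 FPKM in KO. On the log2 scale its change was 1.10 (SE 0.0411, adjusted p = 3.13e-23). In each of the 3 genes the lowest KO library was well above the highest WT library. Since DCIR-type genes are close relatives, reads may be shared: 6.83% of the 50-base words in GENCODE transcripts of Clec4a2 occur in another gene, mostly Clec4a4 and Clec4b1, while Clec4a1 and Clec4a3 share none.

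**Figure D2:**
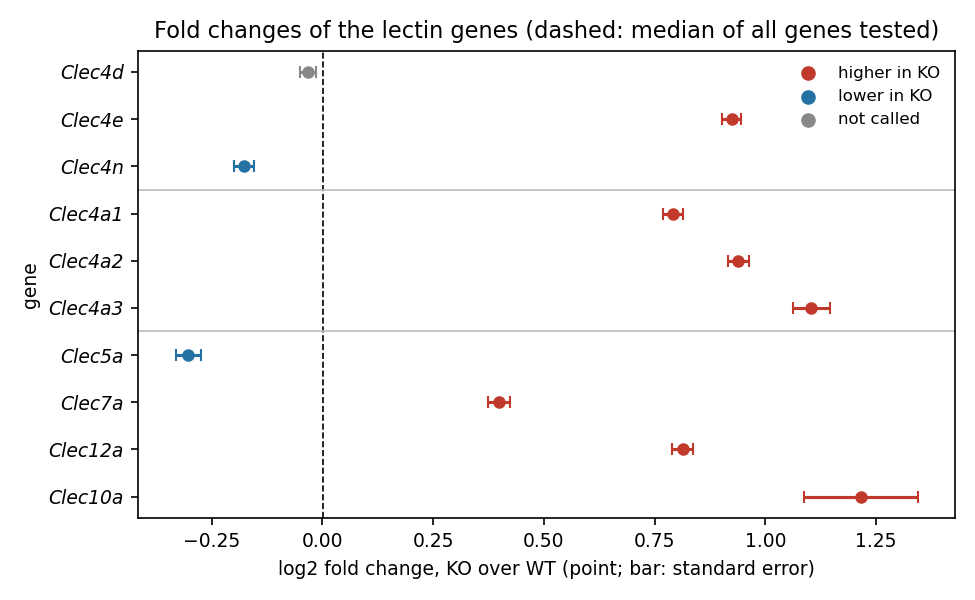
Log2 fold change of KO over WT for each lectin gene, with standard error bars; colours mark genes called higher, lower or not called, and the dashed line is the median of all genes tested. The 3 DCIR-type genes lie between 0.79 and 1.10, while the FcR gamma-coupled genes lie at -0.18, -0.03 and 0.92.

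Set against each other, the DCIR-type genes gained on the FcR gamma-coupled genes. The summed FPKM of Clec4d, Clec4e and Clec4n was 1410 ± 30.3 in WT and 1391 ± 22.2 in KO, a difference smaller than the spread. The summed FPKM of Clec4a1, Clec4a2 and Clec4a3 was 391 ± 7.03 in WT and 706 ± 6.13 in KO. Activating over DCIR-type FPKM was thus 3.63, 3.58 and 3.62 in the WT libraries and 1.98, 1.95 and 1.98 in the KO libraries. On the log2 scale the ratio fell by 0.872, and by 0.933 with Clec4a2 alone as the DCIR type. Without the most abundant activating gene, Clec4d, it fell by 0.793. These ratios are given as a description, with no test, since the members were chosen with results of these data known. The sum hides a shift among the activating genes, because the rise of Clec4e offset the lower values of Clec4n and Clec4d.

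Over all 10 genes the summed FPKM was 2087 ± 44.9 in WT and 2511 ± 29.8 in KO. Clec4d supplied 35.8% ± 0.336 of that sum in WT and 27.9% ± 0.216 in KO, and Clec4n 25.3% ± 0.442 and 17.7% ± 0.332. Clec4a2 went from 8.59% ± 0.0602 to 13.5% ± 0.341, and Clec4e from 6.46% ± 0.0606 to 9.78% ± 0.129.

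**Figure D3:**
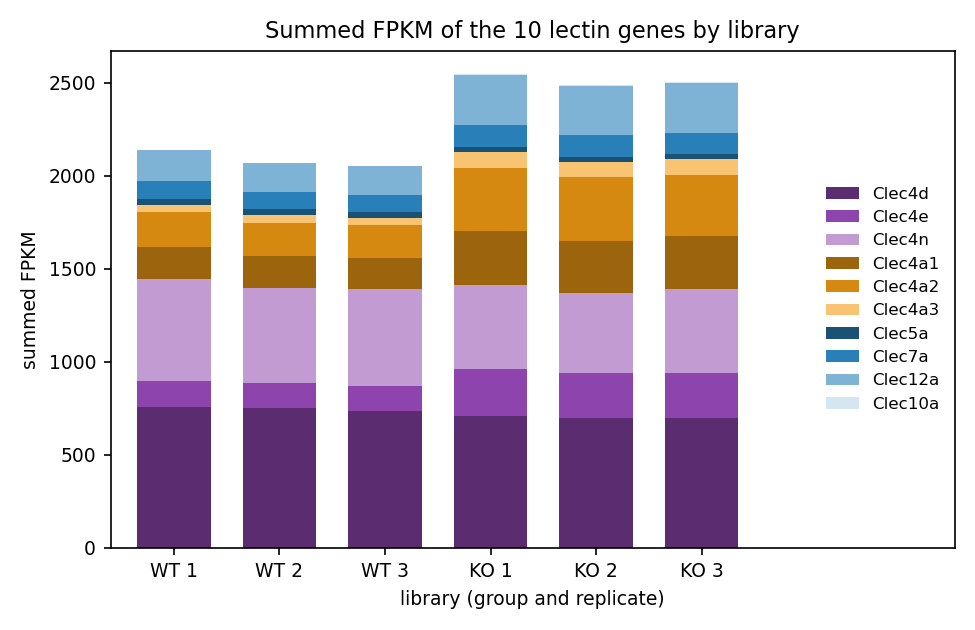
Stacked bars of FPKM of the 10 lectin genes in each of the 6 libraries, on a linear axis from 0. The DCIR-type blocks in orange are thicker in all 3 KO libraries (701 to 713 FPKM against 384 to 398), while the FcR gamma-coupled blocks in purple reach a like height.

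The remaining 4 lectins lie outside the Clec4 cluster. Clec12a encodes MICL, an ITIM-bearing receptor that senses uric acid crystals. Its FPKM was 165, 153 and 154 in WT and 265, 264 and 267 in KO, higher in every KO library, and its log2 fold change was 0.81 (SE 0.0241, adjusted p = 2.48e-26). Clec7a encodes Dectin-1, the receptor for fungal beta-glucan. It had 93.9, 92.3 and 90.4 FPKM in WT and 119.65, 116 and 115 FPKM in KO. On the log2 scale its change was 0.40 (SE 0.025, adjusted p = 1.75e-16). The groups again did not overlap.

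Clec5a encodes MDL-1, a DAP12-coupled receptor of monocytes, macrophages and neutrophils. It had 33.7, 33.2 and 33.4 FPKM in WT and 26.2, 25.9 and 26.1 FPKM in KO, and the log2 fold change was -0.30 (SE 0.0293, adjusted p = 2.28e-11). Clec10a, the galactose-type lectin MGL1, was near the bottom of the measured range. It had 51, 63 and 55 counts in WT and 119, 125 and 134 counts in KO, and the log2 scale change was 1.22 (SE 0.128, adjusted p = 1.69e-10). Its counts are the smallest of the 10, its error is the widest, and 9.02% of the 50-base words in its transcripts also occur elsewhere, mostly in its copy Mgl2.

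By position, the Clec4 cluster runs over 368 kb of chromosome 6, from 122921848 to 123289871, and RefSeq lists 9 protein-coding genes there, all Clec4 genes. From its low-numbered end the order is Clec4a1, Clec4a3, Clec4a4, Clec4b1, Clec4a2, Clec4b2, Clec4n, Clec4d and Clec4e. Of the 10 genes described here, the 3 FcR gamma-coupled ones sit together at the far end. The DCIR-type ones lie on the near side, with Clec4a4 and the activating Clec4b1 between them. Clec4d (123262107 to 123275268, plus strand) and Clec4e (123281789 to 123289871, minus strand) are transcribed towards each other and are 6.52 kb apart. No source used here says whether counting used strand, but the 2 genes do not overlap.

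Of the 3 cluster genes that are not among the 10, Clec4b1 rose and Clec4a4 did not pass. Clec4b1 encodes an activating relative of DCIR. It had 78, 61 and 76 counts in WT and 110, 110 and 104 counts in KO. On the log2 scale its change was 0.65 (SE 0.126, adjusted p = 2.68e-05). Clec4a4, the ITIM-bearing DCIR2, had 17 to 24 counts in WT and 20 to 25 in KO, and its log2 fold change of 0.26 had an adjusted p of 0.366. Clec4b2 had 1 count in each of the 6 libraries and was not tested.

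**Figure D4:**
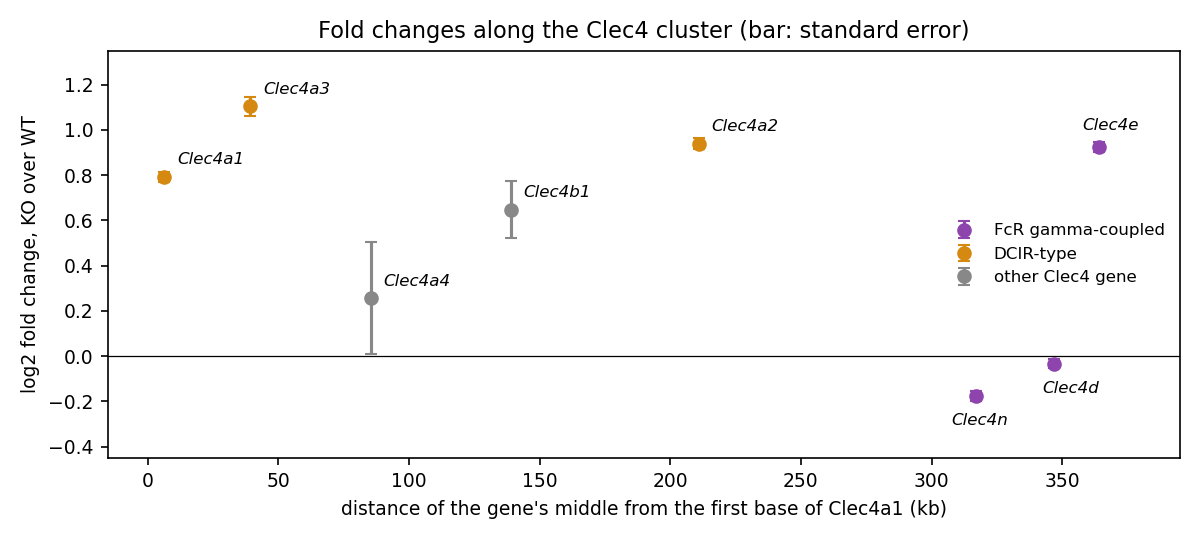
Log2 fold change (points, with standard errors) of the 8 tested Clec4 genes against the distance of each gene's middle from the first base of Clec4a1, in kb. Clec4n and Clec4d lie at or below 0 at 317 and 347 kb, and Clec4e, at 364 kb, lies at 0.92.

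The genes that carry the signal inside the cell were described from a list of 22 adaptors, kinases and transcription factors of the FcR gamma, DAP12, Syk and Card9 route. In KO 14 of the 22 rose, 4 fell and 4 did not pass, with a median log2 fold change of 0.14. Of all genes tested, 34.4% rose and 34.9% fell. The chain itself rose most among the adaptors: Fcer1g had 330 ± 4.98 CPM in WT and 675 ± 18.2 CPM in KO, a 2.04-fold rise (adjusted p = 4.63e-31). Tyrobp, for DAP12, rose 1.27-fold and Hcst, for DAP10, 1.55-fold, the latter at only 3.82 ± 0.945 CPM in WT. Syk, with 467 ± 6.08 CPM in WT against 458 ± 8.44 CPM in KO, did not pass (adjusted p = 0.227), while Card9 rose 1.37-fold from 27.2 ± 1.34 to 37.3 ± 3.42 CPM. The Card9 partners divided, as Bcl10 rose 1.24-fold and Malt1, the protease of the same complex, was 1.42-fold lower. The gene of the Src-family kinase Fgr rose 2.46-fold, and Nfatc2 and Pik3cd rose 1.62-fold and 1.39-fold. With the assumed coefficient of variation of 0.1, 8 of the 22 rose and 1 fell, and on the TPM scale 8 fell.

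All 8 phosphatases and adaptors of ITIM receptors on the second list rose, with a median of 0.44, against 34.4% of all genes. Ptpn6, which encodes SHP-1, had 371.5 ± 4.02 CPM in WT and 531 ± 9.88 CPM in KO, a 1.43-fold rise. The docking proteins Dok2 and Dok1 rose 1.41-fold and 1.36-fold, the lipid phosphatase gene Inppl1 rose 1.36-fold and the kinase gene Csk 1.27-fold. Ptpn11, for SHP-2, and Inpp5d, for SHIP-1, rose only 1.08-fold each. These last rises depend on the scaling: 6 of the 8 passed as higher on the FPKM and TPM scales and with the assumed coefficient of variation of 0.1, and mean TPM was 36.4 in WT and 35.7 in KO for Ptpn11 and 115.3 and 113.7 for Inpp5d. No member of this list reached 2-fold, and adjusted p-values ran from 2.54e-22 for Ptpn6 to 0.000276 for Ptpn11.

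**Figure D5:**
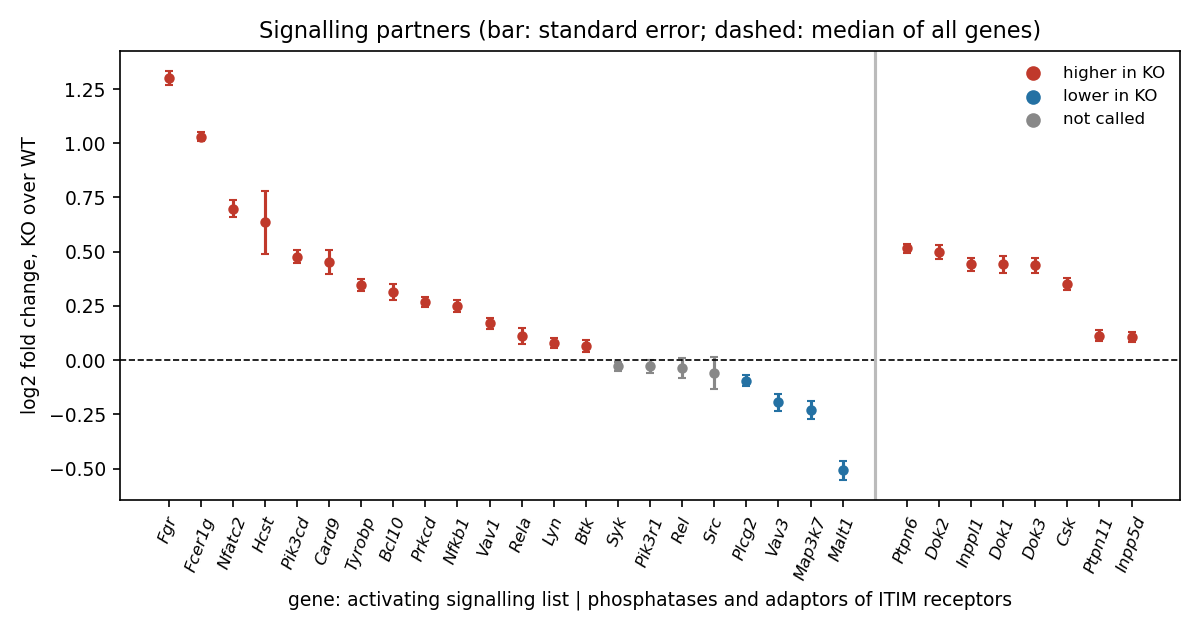
Log2 fold changes with standard errors for 22 genes of activating lectin signalling (left) and 8 phosphatases and adaptors of ITIM receptors (right); the dashed line is the median of all genes. Fgr and Fcer1g are highest on the left, at 1.30 and 1.03, Malt1 is lowest at -0.51, and all 8 genes on the right lie above the line, of which Ptpn11 and Inpp5d, the lowest, are lower in KO by mean TPM.

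Genes induced through Syk and Card9 did not move together. Of 19 tested, 7 rose, 9 fell and 3 did not pass, with a median of 0.00377. The shares of all genes were 34.4% higher and 34.9% lower. Il1b rose 2.88-fold from 4.60 ± 0.0663 to 13.3 ± 0.57 CPM, and the inhibitor gene Nfkbia rose 1.28-fold. The cytokine gene Tnf fell from 85.3 ± 3.39 to 51.6 ± 0.596 CPM, the chemokine gene Ccl3 from 66.6 ± 3.62 to 36.99 ± 0.968 CPM, and Tnfaip3, which encodes the NF-kB inhibitor A20, from 74.7 ± 2.62 to 36.9 ± 0.133 CPM. The inflammasome gene Nlrp3 was 1.42-fold lower.

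Of 12 other genes of antifungal and glycan pattern recognition, 8 were higher and 3 lower, with a median of 0.28. Nlrp3, among the lower ones, is also counted among the induced genes above. Of all genes tested, 34.4% were higher and 34.9% lower. Tlr1 rose 2.78-fold, the scavenger receptor gene Scarf1 1.85-fold, and the lipopolysaccharide co-receptor gene Cd14 1.63-fold. Both chains of complement receptor 3, Itgam and Itgb2, rose 1.33-fold and 1.27-fold. Lgals3, for the beta-galactoside-binding lectin galectin-3, fell from 3454 ± 59.5 to 2427 ± 17.1 CPM.

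Among other genes with a C-type lectin fold, 23 of the 48 in the table were tested. Of these 12 rose, 8 fell and 3 did not pass, with a median of 0.37, against 34.4% higher and 34.9% lower of all genes. Mrc1, the macrophage mannose receptor, rose 1.37-fold from 95.4 ± 1.51 to 131 ± 5.43 CPM, and Cd72 rose 1.32-fold. Layn, a hyaluronan-binding lectin, fell from 63.1 ± 2.36 to 25.2 ± 1.17 CPM, and Clec2i, a ligand of killer cell lectin-like receptors, from 13.4 ± 1.11 to 3.29 ± 0.505 CPM. Cd209f, a relative of DC-SIGN, had 5 to 8 counts in WT and 59 to 61 in KO. Klrb1c, for NK1.1, had 0 to 3 counts in WT and 48 to 53 in KO.

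Several of the lectins are also made by monocytes, neutrophils and dendritic cells, and markers of those cells were measured in the same libraries. The marker counts below stand beside 34.4% of all genes higher and 34.9% lower. Of 12 monocyte markers, 11 were tested, 8 rose and 2 fell, and their summed level was 94.7 to 96.5 CPM in WT libraries and 171 to 173 CPM in KO libraries. Ly6c2 rose 3.73-fold and Ccr2 1.61-fold, and no library had more than 3 counts of Ace. Of 14 neutrophil markers, 7 were tested, 5 rose and 2 fell. Their sum was 871 to 890 CPM in WT and 739 to 761 CPM in KO, most of it Mmp8, which fell 1.43-fold. The neutrophil markers that rose were S100a8 (1.87-fold, with a WT mean of 37.9 CPM), Csf3r (3.21-fold, 19.7 CPM), Mmp9 (2.68-fold, 19.9 CPM), S100a9 (3.19-fold, 0.98 CPM) and Ngp (5.54-fold, 0.163 CPM). Elane and Retnlg had at most 2 counts per library and Cxcr2 2 to 11. Of 12 dendritic cell markers, 7 were tested, 3 rose and 3 fell, and the sum was 141 to 142 CPM in WT and 86.4 to 89.6 CPM in KO, most of it Cd24a. Cd24a fell 2.09-fold, while Ccr7 rose 1.74-fold, Batf3 2.13-fold and Flt3 1.37-fold, with WT means of 11.4, 1.26 and 2.24 CPM. Clec9a and Cd209a, which define dendritic cell types, had at most 3 and 4 counts per library. Of 11 interstitial macrophage markers tested, 9 rose and 1 fell, and the sums were 1210 to 1230 CPM in WT and 3260 to 3420 CPM in KO. The alveolar macrophage list, with 3 of 9 tested genes higher and 5 lower, summed to 700 to 709 CPM in WT and 1550 to 1580 CPM in KO, most of the KO sum being Marco. General macrophage markers rose in 7 of 9 cases and fell in none. T, B and NK cell markers rose in 2 of 2 tested, and 1 of 3 tested eosinophil and mast cell markers fell. On the lung epithelium and fibroblast list all 5 tested genes fell, namely Bgn, Dcn, Col1a2, Col6a1 and Pdgfra. These are fibroblast and matrix genes, and no epithelial gene of that list was tested. The part of any of these cell types in the lectin values was not tested.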

How the data were processed

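RNA of sorted alveolar macrophages was sequenced after polyA selection in 3 WT and 3 KO libraries, per the labels. The submitters' processing notes list HISAT, Bowtie2 and GRCm38.p6, and no source used here names a counter or annotation. The authors deposited estimated counts per gene, which are not whole for 8.66% to 9.19% of genes and were rounded, with FPKM and TPM columns per library. Their scaled count signal was not used, and a deposited heat map table of log2(FPKM + 1) for 6784 genes, with 9 of the 10 members, entered no test. KO and WT were compared with edgeR 4.0.16 (TMM scaling, filterByExpr, group only) in R 4.3.3. SE is the log2 fold change over the square root of F. CPM uses TMM-adjusted library sizes. Libraries of a group differed beyond counting noise (chi-square per gene 1.38 to 1.61). Limma 3.58.1 and DESeq2 1.42.0 were among the alternatives. Members and lists were chosen with earlier results of these data known. Named genes are the members, cluster genes, up to 6 genes per list by smallest adjusted p and listed signalling genes; Bcl10, Malt1 and the single markers were chosen after their values were seen. The script was tested on simulated data. Promoters are from RefSeq. Protein sequences were not used here, and 1 gene of the signalling list is not reported here.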

Additional observations from a re-analysis of the deposited data

How the results depend on the processing

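The 7 members that rose kept their direction and passed in all 18 other fits, with Clec4e at log2 fold changes of 0.78 to 0.94, Clec4a2 at 0.83 to 0.96 and Clec4a1 at 0.65 to 0.80, and Clec5a stayed lower in all 18. On the TPM scale the median of all genes shifted by -0.121, with 2366 genes higher and 5709 lower. Relative to that median, Clec4d lay at -0.06, Clec4n at -0.21 and Clec5a at -0.31. Clec4d passed as lower with upper-quartile scaling (-0.0411), no scaling (-0.0902), a stricter low-count filter (-0.0399), limma on log2(FPKM + 1) (-0.0934), log2(FPKM + 0.1) (-0.0935) and log2(TPM + 1) (-0.175). With an assumed coefficient of variation of 0.1, 37.3% of genes passed (2180 higher, 2226 lower), and 7 members were higher and 1 lower, because Clec4n (-0.177) was lost; the signalling list then had 8 higher and 1 lower, and on the TPM scale 8 lower. Requiring 2-fold left 2 members higher and 0 lower, and 385 and 584 of all genes. By list it left 2 higher and 0 lower in activating signalling, 0 higher among phosphatases, 0 higher among other Clec4 genes, 5 higher and 6 lower among other lectins, 1 higher and 0 lower among other pattern receptors, and 2 higher and 1 lower among induced genes. The stricter filter left 5 other lectins lower. Of the 8 phosphatases and adaptors, 6 stayed higher on both FPKM scales, the TPM scale and with the assumed coefficient, and 7 with no scaling. The log2 ratio of activating over DCIR-type FPKM, -0.872, was -0.933 with Clec4a2 alone and -0.793 without Clec4d, which follows from the genes summed. Other causes were not tested.

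With the replicate number as a block, 7 members were higher and 2 lower, as without it, and 4121 of all genes were higher and 4200 lower. Deviations of same-numbered libraries correlated at 0.0534, 0.028 and 0.0295, each small (below 0.1) but the highest for its library. These values do not settle whether the numbers pair the samples. The labels state no such link, and the main fit used group only. Leaving out any 1 library kept 7 members higher and 2 lower. Clec10a, with 51 to 134 counts, is the member most limited by depth.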

Other observations

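Genes whose profile over the 6 libraries was nearest to a leading member were listed by the Euclidean distance of log2(CPM + 0.5), centred per gene, which follows the size of the change and not the level. Nearest to Clec4d were Smc1a, Skp1a and Cln8, with log2 fold changes of -0.03, -0.02 and -0.05. Nearest to Clec4a2 were Ndrg1 at 0.94, Slamf9 at 0.91 and Lpcat2 at 0.96, and nearest to Clec12a were Slamf6 at 0.90, Xylt2 at 0.82 and Tmem176b at 0.79.

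The genes of the table nearest to the Clec4 cluster on each side were looked at after the values inside it had been seen. Of the 10 genes of the table on each side, 13 were tested, 9 rose and 2 fell, with a median of 0.49. Of all genes tested, 34.4% rose and 34.9% fell. Not all of these genes are adjacent: the cluster ends at 123289871, and the tested genes after it start at 124304636 or later. Gdf3, a TGF-beta family ligand gene before the cluster, rose by 2.32 on the log2 scale, from 14.2 ± 0.801 to 70.8 ± 0.698 CPM. C3ar1, the receptor gene for complement fragment C3a, rose 1.22-fold from 823 ± 12.8 to 1002 ± 13.9 CPM, while its neighbour Necap1 was 1.22-fold lower. After the cluster, the complement protease genes C1ra, C1rl and C1s1 rose 1.40-fold, 1.93-fold and 1.61-fold from 14.8 ± 1.32, 7.51 ± 0.644 and 3.48 ± 0.66 CPM in WT. No test of position was made.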
